A study of Mus musculus with 22 samples.

Results

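Transcripts of the suppressor of cytokine signalling (SOCS) family were measured in donor T cells taken from mice after allogeneic haematopoietic cell transplantation, with and without an antibody against IL-2. The family was taken as the genes named Cish and Socs1 to Socs7, which are 8 of the 24091 gene names in the deposited count table. All 8 had enough reads to enter every test, although Socs2 had as few as 8 reads in a library. Cells from spleen and bone marrow of wild-type C57BL/6 mice had been transplanted into wild-type BALB/c recipients that had received lethal irradiation, and every recipient in these data was wild type. The recipients were given an IL-2 blocking monoclonal antibody (anti-IL-2) or control IgG. T cells of donor origin, CD4 and CD8, were isolated by flow cytometry on day 7. There were 3 libraries each of CD4 and of CD8 cells from the colon (called gut here) of anti-IL-2 recipients and 2 each from the gut of IgG recipients. From spleen there were 3 libraries each of CD4 and of CD8 cells of anti-IL-2 recipients and 3 each of IgG recipients. The 22 libraries came in 3 batches, named 181201, 181212 and 190306 in the labels, and batch 181201 holds no gut library of an IgG recipient. The labels do not say whether a library is from a single recipient or from a pool, so p-values measure the spread between libraries, which may be technical.

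Cish lies at chr9:107296026-107302784 on the plus strand, Socs2 at chr10:95385362-95417180 on the minus strand, Socs3 at chr11:117966079-117970047 on the minus strand and Socs5 at chr17:87107679-87137839 on the plus strand (GENCODE M21, GRCm38). SOCS proteins end the signal that a cytokine starts. A cytokine receptor activates JAK kinases, the kinases phosphorylate STAT transcription factors, and the STATs switch on genes that include members of this family. The SOCS protein then binds the receptor or the kinase through its SH2 domain, and its SOCS box recruits a ubiquitin ligase. CIS, encoded by Cish, was described as an early target of STAT5 and damps IL-2 receptor and T cell receptor signalling. SOCS2 is best known as the feedback inhibitor of growth hormone signalling and is also a STAT5 target. SOCS1 restrains interferon and common gamma chain cytokine signals, and SOCS3 restrains signals through the shared receptor chain gp130. SOCS4 to SOCS7 are less well understood, and SOCS4 and SOCS5 have been linked to the epidermal growth factor receptor.

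Promoter sequences from RefSeq on build GRCm38.p6, in windows of 300 bases around the annotated start, were available for Cish, Socs1, Socs3 and Socs4. Each was searched on both strands for TTCNNNGAA, the core that STAT factors bind, and for GAAA followed, after any 2 bases, by a further GAAA, a core of the interferon-stimulated response element (ISRE). The stretches with a match are shown, for 3 of these 4 members, and capitals mark the matches. The stretches are Cish at chr9:107296634-107296688 on the plus strand, Socs1 at chr16:10785579-10785644 on the minus strand and Socs3 at chr11:117969487-117969545 on the minus strand.
Cish: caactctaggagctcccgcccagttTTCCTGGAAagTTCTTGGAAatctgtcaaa
Socs1: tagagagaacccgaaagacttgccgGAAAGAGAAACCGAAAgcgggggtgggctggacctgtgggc
Socs3: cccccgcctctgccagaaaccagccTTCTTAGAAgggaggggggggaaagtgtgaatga
The Cish window held TTCNNNGAA in 2 places, from position 0 to 8 and from 11 to 19, where position 0 is the annotated first base of the transcript. Of 32851 promoter windows of 300 bases, 8.30% held this motif at least once and 0.457% held it at 2 or more places, overlapping matches included. Socs3 held it once, from position -154 to -146. Socs1 held the ISRE core at 2 overlapping places, from -83 to -74 and from -77 to -68, which 0.225% of windows did, and 3.44% held it at least once. Neither motif was found in the Socs4 window. These matches describe letters in the reference genome and show no binding.

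The libraries carried the defining markers of their labelled cell types, at total counts of 14628806 to 24518362 per library. Cd4 ranged from 1802 to 2610 CPM (read counts scaled to a common library size) in the 11 CD4 libraries and from 0.322 to 7.21 CPM in the 11 CD8 libraries. Cd8a ranged from 0.115 to 3.60 CPM in CD4 libraries and from 912 to 2130.0 CPM in CD8 libraries. The treatment labels were less clear. Il2ra, which encodes the alpha chain of the IL-2 receptor and is itself induced by IL-2, was lower in anti-IL-2 than in IgG libraries in all 6 within-batch pairs of batches 181201 and 181212, with log2 differences between -2.05 and -1.11. In batch 190306 the libraries with the anti-IL-2 label had more of it in all 4 pairs, with log2 differences between 1.57 and 1.83. Treatment results are therefore given batch by batch, then over batches 181201 and 181212, then over all batches. No sample was relabelled, and the cause of the difference between batches was not tested.

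Per base of exon, Socs3 had the highest median of the 8 members over all libraries and Socs2 the lowest. The length was that of all annotated exons of a gene joined. It was 2891 bases for Socs3, 2908 for Socs1, 6419 for Cish, 9531 for Socs2 and 11349 for Socs6. Such a length can exceed that of the RNA present. Comparisons between members depend on it, and other lengths were not tried. Median levels over the 22 libraries, in CPM per kilobase of annotated exon, were 51.2 for Socs3, 16.1 for Cish, 10.1 for Socs7, 9.82 for Socs1, 6.37 for Socs4, 2.41 for Socs5, 0.932 for Socs6 and 0.624 for Socs2. Of neighbours in that order, Socs4 (5.06 to 7.91) and Socs5 (0.907 to 4.10) had ranges over the libraries that did not overlap, and the ranges of all other neighbours overlapped. The level of Cish depended on the population: its median per-length level was 45.4 in CD4 gut and 22.7 in CD8 gut, against 9.69 in CD4 spleen and 2.84 in CD8 spleen. By median, Socs2 was below Socs6 in CD8 cells, at 0.373 against 0.857 in gut and 0.250 against 0.937 in spleen. In CD4 cells its median was the higher, at 1.07 against 0.948 in gut and 0.994 against 0.961 in spleen. The CD4 spleen libraries had either 1.66 to 2.75 or 16.2 to 21.4 CPM of Socs2. That median lies between them and describes no library, so it does not place Socs2 above Socs6 there. The members also differed in how far their own levels spread. Over all libraries Socs2 ranged from 0.470 to 38.1 CPM, with a median of 5.95, and Cish from 9.20 to 509 CPM, with a median of 104. The standard deviation of log2 CPM of Socs2 was at percentile 98.7 of all genes tested and that of Cish at percentile 97.8. Socs1, Socs3 and Socs5 lay between percentiles 70.9 and 76.8, with ratios of highest to lowest library between 4.02 and 4.51. Socs4, Socs6 and Socs7 lay between percentiles 13.2 and 22.6, with ratios between 1.43 and 1.56.

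**Figure D1:**
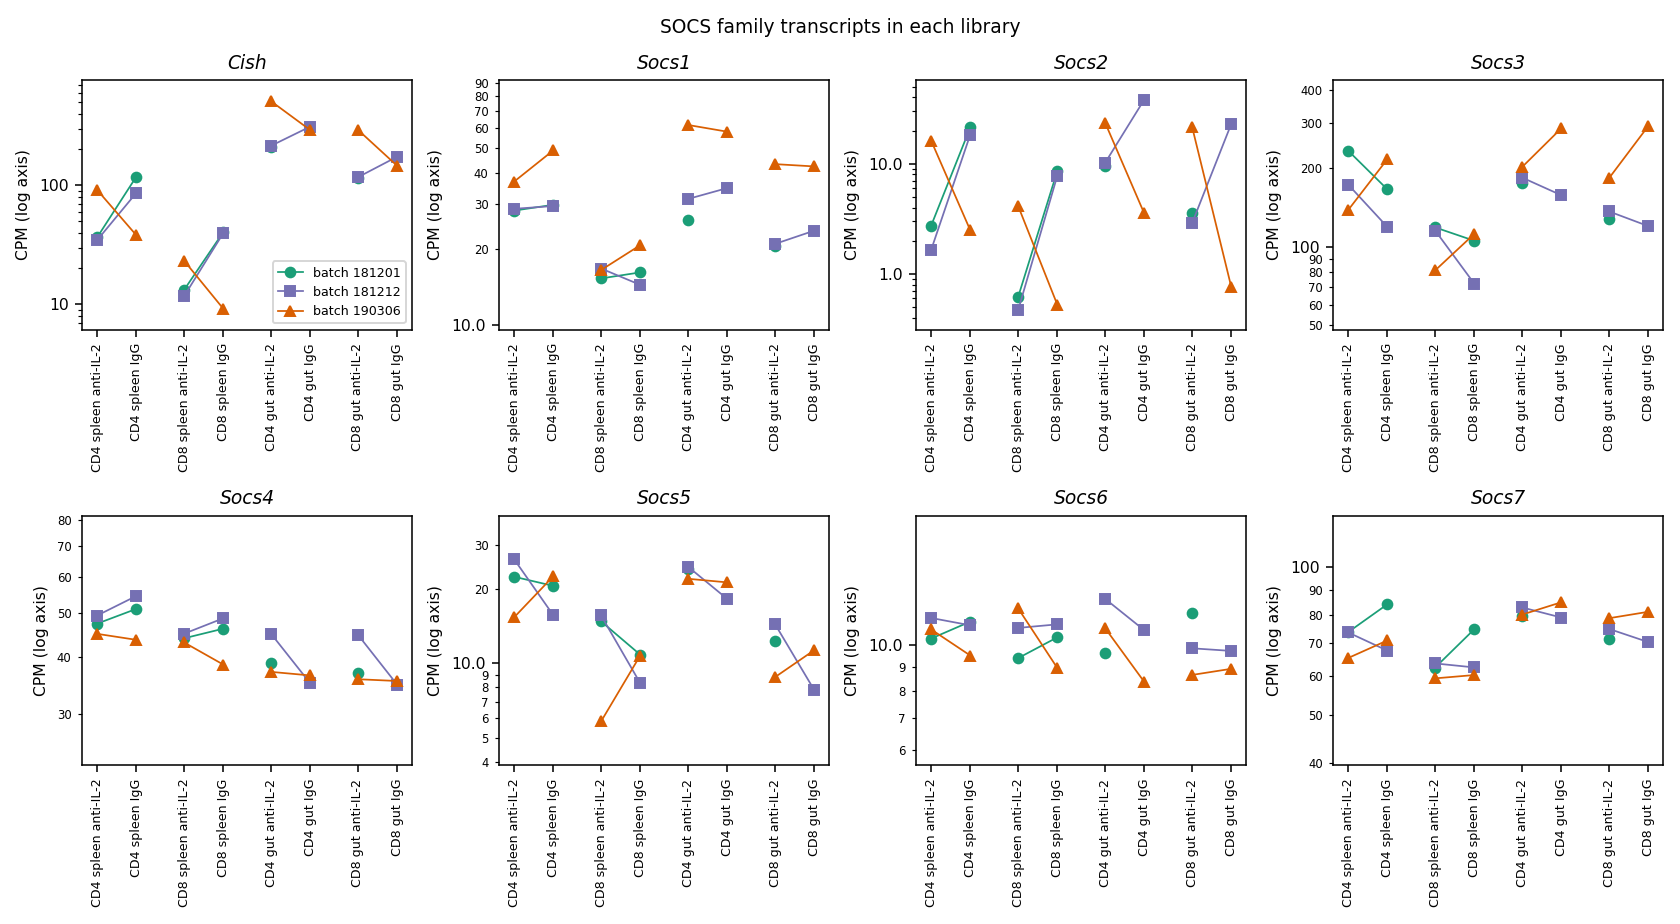
CPM (log axis) of each SOCS family gene in each of the 22 libraries, with lines joining the anti-IL-2 library (left of each pair) to the IgG library of the same batch and population and unjoined points where a batch has no gut IgG library. For Cish and Socs2 the lines of batches 181201 and 181212 climb toward IgG and those of batch 190306 descend, while Socs4, Socs6 and Socs7 stay within a 1.43-fold to 1.56-fold range.

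Whether blocking IL-2 lowered the STAT5 targets of the family was asked first of Cish. In CD4 spleen cells Cish had 36.5, 34.6 and 91.4 CPM in the anti-IL-2 libraries of batches 181201, 181212 and 190306, against 118, 86.2 and 38.1 CPM in the IgG libraries of the same batches. In CD8 spleen cells the anti-IL-2 libraries had 13.2, 11.7 and 23.2 CPM, against 40.3, 39.5 and 9.20 CPM in IgG libraries. Both spleen populations were lower with anti-IL-2 in the first 2 batches and higher in batch 190306, so that the groups overlap over 3 batches and are apart within the first 2. In CD4 gut cells, where batches 181212 and 190306 can be paired, anti-IL-2 libraries had 215 and 509 CPM, against 311 and 291 CPM in IgG libraries. In CD8 gut cells they had 117 and 292 CPM, against 174 and 146 CPM. The remaining gut libraries, anti-IL-2 of batch 181201, had 210.2 CPM in CD4 and 116 CPM in CD8 cells, close to the anti-IL-2 libraries of batch 181212. The annotation places a pseudogene and an antisense gene on the other strand over part of Cish. Because the strand setting of the counting is not given in the sources used here, reads of these genes and of Cish cannot be told apart.

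Socs2 moved the same way and further. In CD4 spleen cells it had 2.75, 1.66 and 16.2 CPM in anti-IL-2 libraries of batches 181201, 181212 and 190306, against 21.4, 18.4 and 2.49 CPM in IgG libraries. CD8 spleen cells had 0.619, 0.470 and 4.14 CPM with anti-IL-2, against 8.57, 7.75 and 0.529 CPM with IgG. In both spleen populations the high libraries were those of IgG in batches 181201 and 181212 and of anti-IL-2 in batch 190306, and the other 3 were all lower. In the gut pairs of batches 181212 and 190306, CD4 cells had 10.2 and 23.6 CPM with anti-IL-2, against 38.1 and 3.55 CPM with IgG. CD8 gut cells had 2.89 and 21.7 CPM with anti-IL-2, against 22.9 and 0.770 CPM with IgG. The 2 gut anti-IL-2 libraries of batch 181201 had 9.57 CPM in CD4 and 3.56 CPM in CD8 cells. The size of the within-batch difference in Socs2 ran from 1.89 to 4.64 on the log2 scale, and in Cish from 0.535 to 1.75.

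Socs3 and Socs5 ran against Cish and Socs2. In CD4 spleen cells Socs3 had 234, 173 and 138 CPM in anti-IL-2 libraries of batches 181201, 181212 and 190306, against 166, 119 and 217 CPM in IgG libraries. In CD8 spleen cells it had 119, 116 and 81.2 CPM with anti-IL-2, against 106, 72.2 and 112 CPM with IgG. Gut pairs of batches 181212 and 190306 had 184 and 202 CPM with anti-IL-2, against 158 and 285 CPM with IgG, in CD4 cells. They had 137 and 184 CPM with anti-IL-2, against 120.1 and 290.5 CPM with IgG, in CD8 cells. Socs3 was thus higher with anti-IL-2 in the 6 pairs of the first 2 batches and lower in the 4 pairs of batch 190306. Socs5 had 22.3, 26.3 and 15.3 CPM with anti-IL-2 in CD4 spleen cells, against 20.5, 15.6 and 22.4 CPM with IgG. It had 14.8, 15.6 and 5.82 CPM with anti-IL-2 in CD8 spleen cells, against 10.8, 8.30 and 10.7 CPM with IgG. Socs5 was higher with anti-IL-2 in every spleen pair of the first 2 batches and lower in both of batch 190306. Gut pairs of batches 181212 and 190306 had 24.5 and 21.9 CPM with anti-IL-2, against 18.2 and 21.2 CPM with IgG, in CD4 cells and 14.4 and 8.78 CPM with anti-IL-2, against 7.80 and 11.3 CPM with IgG, in CD8 cells.

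Set beside Il2ra over the 10 within-batch pairs, a comparison chosen after seeing the data, Cish and Socs2 had the sign of Il2ra in 10 pairs, Socs3 had the opposite sign in 10 and Socs5 in 9. Of the 12840 genes other than Il2ra, 7.45% had the sign of Il2ra in all pairs, 7.37% had the opposite sign in all and 7.06% in all but 1. The exception for Socs5 was CD4 gut of batch 190306. Socs1, the inhibitor of interferon signalling, shared the sign in 7 pairs with differences no larger than 0.41 on the log2 scale. Its levels in CD4 spleen cells were 28.3, 28.8 and 36.9 CPM with anti-IL-2, against 29.9, 29.5 and 48.9 CPM with IgG. Socs4, Socs6 and Socs7 shared the sign in 8, 6 and 2 pairs, and no within-batch difference of theirs was larger than 0.42. The 10 pairs come from 3 batches, and pairs of 1 batch are not independent of each other.

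**Figure D2:**
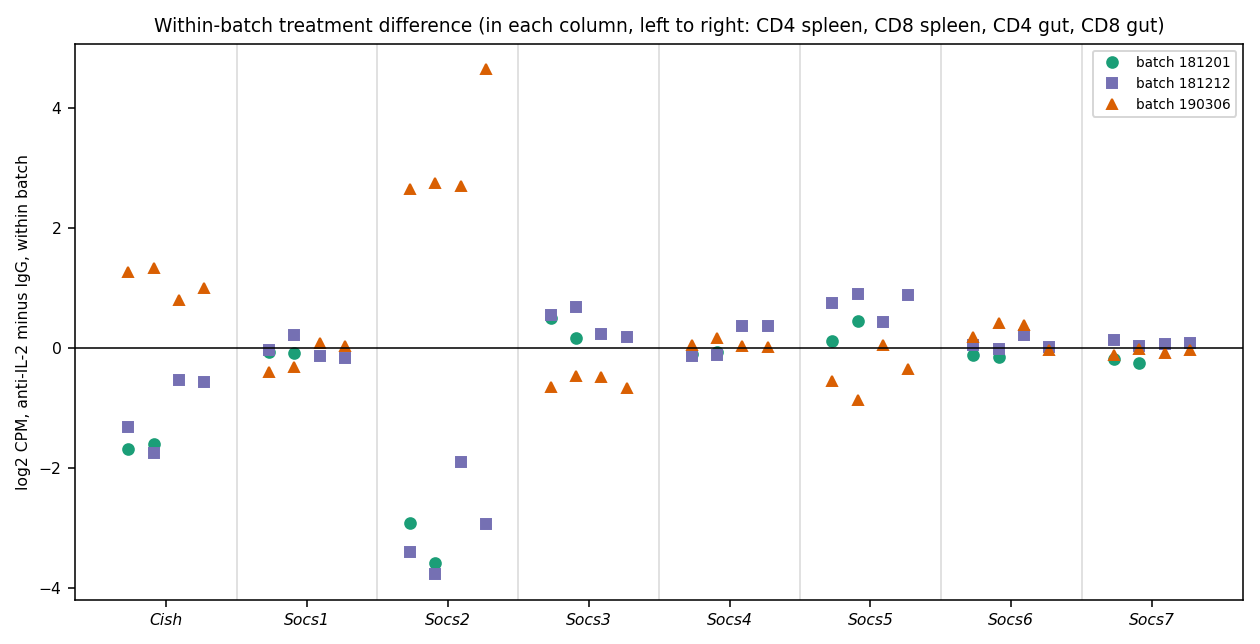
Difference in log2 CPM, anti-IL-2 minus IgG, for each gene in each of the 10 within-batch pairs, coloured by batch, with populations in the order CD4 spleen, CD8 spleen, CD4 gut and CD8 gut inside each column. Cish and Socs2 lie below 0 in batches 181201 and 181212 and above 0 in batch 190306, Socs3 shows the reverse, and Socs4, Socs6 and Socs7 lie within 0.42 of 0.

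Over batches 181201 and 181212, Cish and Socs2 fell with anti-IL-2 in every population and Socs5 rose in CD8 cells of both tissues (edgeR quasi-likelihood test on 14 libraries, adjusted over 13073 genes). Gut rests there on a single IgG library per cell type, whose spread is taken from the other groups. In CD4 spleen cells 2 of the 8 members passed, against 20.1% of all genes. Cish fell 2.84-fold, with a log2 fold change of -1.51 ± 0.10 (SE) and an edgeR adjusted p of 1.93e-06. Socs2 fell 8.86-fold (-3.15 ± 0.18, adjusted p 2.1e-07) and was number 8 of all genes by p-value. In CD8 spleen cells 3 of the 8 members passed, against 12.1% of all genes. Cish fell 3.23-fold (-1.69 ± 0.12, edgeR adjusted p 5.58e-06) and Socs2 14.9-fold (-3.89 ± 0.24, edgeR adjusted p 1.04e-06). Socs5 rose 1.57-fold there (0.65 ± 0.16, edgeR adjusted p 0.0193), a call that was lost without the CD8 spleen anti-IL-2 library of batch 181201 (0.72) or 181212 (0.59) or the IgG library of batch 181212 (0.46).

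In the gut 2 of 8 members passed in CD4 cells, against 11.7% of all genes, and 3 of 8 in CD8 cells, against 10.7%. Cish fell 1.51-fold in CD4 gut cells (-0.59 ± 0.12, edgeR adjusted p 0.00721) and 1.55-fold in CD8 gut cells (-0.64 ± 0.12, adjusted p 0.00599). Socs2 fell 4.10-fold in CD4 gut cells (-2.03 ± 0.17, edgeR adjusted p 2.75e-05) and 7.63-fold in CD8 gut cells (-2.93 ± 0.19, adjusted p 3.62e-06). Socs5 rose 1.69-fold in CD8 gut cells (0.76 ± 0.22, edgeR adjusted p 0.0408), and this call was not made by DESeq2 (adjusted p 0.0916) or limma voom (adjusted p 0.0575). It was also lost without the anti-IL-2 library of CD8 spleen or of CD4 gut in batch 181201 or 181212, or of CD8 gut in batch 181212, with log2 values from 0.59 to 0.75. Socs3 did not pass in any population, with 0.53 ± 0.18 in CD4 spleen (edgeR adjusted p 0.0854) and 0.41 ± 0.18 in CD8 spleen (adjusted p 0.233). DESeq2 called it in both (adjusted p 0.00158 and 0.0438). Socs4 had 0.33 ± 0.10 in CD4 gut (edgeR adjusted p 0.061) and 0.28 ± 0.10 in CD8 gut (adjusted p 0.095). Socs1, Socs6 and Socs7 passed in no population.

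**Figure D3:**
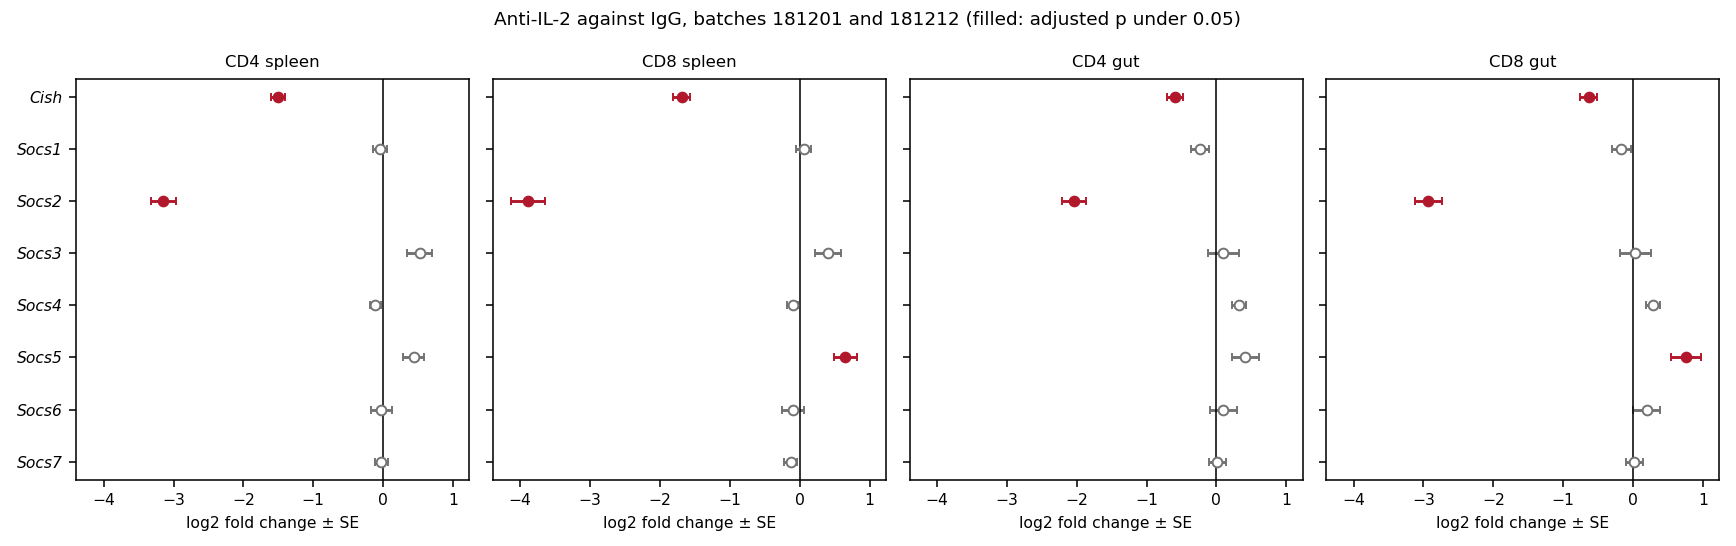
Log2 fold change of anti-IL-2 over IgG with its standard error for each SOCS family gene in the 4 populations, from 14 libraries of batches 181201 and 181212, with filled points for an edgeR adjusted p under 0.05. Socs2 lies farthest to the left in each panel, from -3.89 in CD8 spleen to -2.03 in CD4 gut, and Cish lies next to it.

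The size of these differences was then compared between tissues and cell types. The treatment difference in Cish was smaller in gut than in spleen, by 0.91 ± 0.16 on the log2 scale in CD4 cells (edgeR adjusted p 0.00656) and by 1.05 ± 0.17 in CD8 cells (adjusted p 0.00968). That of Socs2 was smaller in gut by 1.11 ± 0.26 in CD4 cells (edgeR adjusted p 0.023). In CD8 cells the Socs2 value was 0.96 ± 0.35 and did not pass (edgeR adjusted p 0.197). Thus 2 members passed in CD4 and 1 in CD8 cells, against 5.39% and 2.39% of all genes. Without the CD4 gut anti-IL-2 library of batch 181212, both CD4 calls were lost, at 0.80 for Cish (edgeR adjusted p 0.0534) and 0.88 for Socs2. The Socs2 call was also lost without the CD4 spleen anti-IL-2 (0.90) or IgG (1.13) library of that batch, and the CD8 call of Cish without the CD8 spleen anti-IL-2 library of batch 181201 (1.10, edgeR adjusted p 0.0611). No member passed for the difference between CD8 and CD4 cells, where 0.918% of genes in spleen and 0.0841% in gut did. For Socs2 that difference was -0.75 ± 0.34 in spleen (edgeR adjusted p 0.6) and -0.90 ± 0.26 in gut (adjusted p 0.336). Batch 190306 did not enter these tests. There the Socs2 difference was not smaller in gut, at 2.70 against 2.65 in CD4 spleen. In CD8 cells of that batch it was 4.64 in gut against 2.745 in spleen. The Cish difference there was smaller in gut, at 0.804 against 1.26 in CD4 and 1.002 against 1.328 in CD8 cells.

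When all 22 libraries were fitted with batch as a term, no member differed between anti-IL-2 and IgG in any population, and neither did any other gene (0% of 12841). An unadjusted p under 0.05 was reached by 282 genes in CD4 spleen, 148 in CD8 spleen, 750 in CD4 gut and 953 in CD8 gut, and by no SOCS family gene. DESeq2 and limma voom called no member either. The Socs2 value in CD4 spleen was -1.20 ± 1.46 and that of Cish -0.69 ± 0.61 (SE). A comparison of batches was chosen with the reversal in batch 190306 already known, so its p-values are no independent evidence of that reversal. In it, the treatment difference itself was compared between batch 190306 and the other batches. It was higher in batch 190306 for Cish in all 4 populations, by 2.78 ± 0.18 in CD4 spleen (edgeR adjusted p 9.41e-07) and by 1.41 ± 0.18 in CD4 gut (adjusted p 0.000314). For Socs2 it was higher by 5.86 ± 0.30 in CD4 spleen (edgeR adjusted p 5.26e-08) and by 7.74 ± 0.35 in CD8 gut (adjusted p 7.12e-08), where Socs2 was number 1 of all genes by p-value. The call of Cish in CD8 spleen was lost with batch as an additive term, at 1.91. The treatment difference was lower in batch 190306 for Socs5 in CD4 spleen, CD8 spleen and CD8 gut. The CD8 gut call was lost in 5 of 19 fits that left out a library, with DESeq2 (adjusted p 0.176) and with limma voom (0.053), and the CD4 spleen call with DESeq2 (0.0956). It was also lower for Socs3 in CD4 spleen (-1.16 ± 0.31, edgeR adjusted p 0.0328), a call that was lost without the CD4 spleen anti-IL-2 library of batch 181201 (-1.03) or the IgG library of batch 181212 (-0.999). In total 12 of 32 values passed, 4 in CD4 spleen, 3 in CD8 spleen, 2 in CD4 gut and 3 in CD8 gut, against 24.3%, 16.1%, 15% and 13% of all genes. These counts and the values over batches 181201 and 181212 share libraries and are not independent of each other.

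Other genes of the pathway were counted from lists chosen with earlier results of these data known. Over batches 181201 and 181212 in CD4 spleen cells, 5 of 11 JAK and STAT genes rose with anti-IL-2 and none fell, with a list median of 0.18 against 0.00 for all genes. Beside this and the following counts, 1281 of 13073 genes rose and 1346 fell in CD4 spleen, 792 and 795 in CD8 spleen, 790 and 743 in CD4 gut, and 720 and 683 in CD8 gut. Jak2, a kinase used by many cytokine receptors, rose by 0.38 ± 0.05 (edgeR adjusted p 0.000235). Stat5a and Stat5b, the STATs that IL-2 activates, rose by 0.40 ± 0.06 and 0.30 ± 0.05 (edgeR adjusted p 0.00057 and 0.00116). In CD8 spleen, CD4 gut and CD8 gut 3, 2 and 1 of the 11 rose and none fell. Of 20 cytokine receptor genes, 6 rose and 5 fell in CD4 spleen cells, with Il6st (gp130) at 1.29 ± 0.06 (edgeR adjusted p 7.76e-08) and Il2ra at -2.01 ± 0.12 (adjusted p 2.21e-06). Il6st rose in the other populations too, with log2 fold changes of 0.73 to 1.09, and Il2ra fell there, with -1.78 to -1.08.

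Among 13 other inhibitors of the pathway, 3 rose and none fell in CD4 spleen cells. They were Ptprc (CD45, a phosphatase), Cblb (a ubiquitin ligase) and Usp18, an interferon-induced brake on interferon receptors, which rose by 1.42 ± 0.26 (edgeR adjusted p 0.00236). In CD8 spleen and CD4 gut 2 rose, and none in CD8 gut. None of the 9 listed genes of the ubiquitin ligase that the SOCS box recruits passed in any population, and the elongins Eloc and Elob had -0.07 ± 0.07 and -0.12 ± 0.09 in CD4 spleen (edgeR adjusted p 0.579 and 0.403). Genes known to be induced by IL-2 and STAT5 did not all move with Cish and Socs2. Of 21, 12 fell and 1 rose in CD4 spleen, 8 fell and 3 rose in CD8 spleen, 2 fell and 5 rose in CD4 gut, and 3 fell and 3 rose in CD8 gut. Il2ra, whose fall was known beforehand, is among the 21. Il18r1 (-0.77 ± 0.05), Gzmb (-1.67 ± 0.10) and Prf1 (-0.68 ± 0.07) fell in CD4 spleen cells, with edgeR adjusted p values of 6.25e-07, 1.93e-06 and 2.24e-05. In the gut Tnfrsf9, an activation receptor, rose by 0.52 ± 0.11 in CD4 and 0.80 ± 0.11 in CD8 cells (edgeR adjusted p 0.00856 and 0.000749).

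Of 8 genes known to be repressed by IL-2 and STAT5, 6 rose in CD4 spleen, 6 in CD8 spleen, 6 in CD4 gut and 5 in CD8 gut, and none fell. Bcl6, which opposes STAT5 at many targets, rose by 1.47 ± 0.11 in CD4 spleen cells (edgeR adjusted p 1.22e-06) and Tcf7 by 1.37 ± 0.12 (adjusted p 4.15e-05). Of 12 interferon response genes, 9 rose in CD4 spleen, 9 in CD8 spleen, 7 in CD4 gut and 4 in CD8 gut, and none fell, with Mx1 at 1.47 ± 0.09 in CD4 spleen cells (edgeR adjusted p 2.75e-07). Socs1, the member best known as an interferon target, did not pass beside them (-0.05 ± 0.10 in CD4 spleen, edgeR adjusted p 0.817). In batch 190306 relative to the other batches, 6 of the 8 repressed genes and 9 of the 12 interferon genes had a lower treatment difference in CD4 spleen. Of all 12841 genes, 1478 did. This comparison shares libraries with the rises above and is not independent of them.

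Summed markers of other cell types differed between the treatment labels in the same pairs. The summed CPM of 10 macrophage markers, each with reads in every group, was 278, 37.5 and 27.04 in anti-IL-2 libraries of CD4 spleen, against 48.9, 15.2 and 184 in IgG libraries of batches 181201, 181212 and 190306. In CD8 spleen it was 121, 54.6 and 55.3 with anti-IL-2, against 62.6, 32.9 and 94.9 with IgG. These sums were higher with anti-IL-2 in batches 181201 and 181212 and lower in batch 190306, the direction of Socs3 and opposite to that of Cish and Socs2. In gut they were 44.0 and 15.5 with anti-IL-2, against 33.7 and 32.3 with IgG, in CD4 cells of batches 181212 and 190306, and 94.7 and 52.2 with anti-IL-2, against 42.6 and 71.5 with IgG, in CD8 cells. The summed CPM of 6 dendritic cell markers ran the other way in CD4 spleen, with 38.5, 26.1 and 63.2 in anti-IL-2 libraries against 68.0, 76.3 and 32.5 in IgG libraries, and Siglech was at 0 in both groups. Markers of NK cells (4 genes, Klra8 at 0 in anti-IL-2 libraries) summed to 50.5, 47.4 and 14.4 CPM with anti-IL-2, against 29.8, 21.98 and 37.6 CPM with IgG, in CD4 spleen. Both sums were larger in CD8 spleen. There the dendritic sum was 307.8 to 489.5 CPM with anti-IL-2 and 406.9 to 484.8 with IgG. The NK sum there was 97.7 to 173.5 CPM with anti-IL-2 and 121.9 to 175.2 with IgG. Which cells this RNA came from, the sorted T cells included, was not tested. In the gut pairs of batch 181212, which carry the gut treatment values, other sums differed more. Markers of fat (4 genes) had 14.5 CPM with anti-IL-2 and 0 with IgG in CD4 cells, and 15.1 and 0.695 CPM in CD8 cells. Markers of pancreas (4 genes) had 18.9 CPM with anti-IL-2 and 0.333 with IgG in CD4 cells, and 12.4 and 0.321 CPM in CD8 cells. Those of fibroblasts (5 genes) had 8.15 CPM with anti-IL-2 and 0.665 with IgG in CD4 cells, and 16.02 and 0.481 CPM in CD8 cells. The 2 gut anti-IL-2 libraries of batch 181201 also held such RNA, between 3.19 and 28.8 CPM per list, and in the gut libraries of batch 190306 no such sum was above 2.37 CPM. The 12 stress and immediate early genes summed to 5697 CPM with anti-IL-2 and 8617 with IgG in CD4 gut cells of batch 181212, and to 4315 and 6544 CPM in CD8 gut cells. They were lower with anti-IL-2 in batch 190306 as well, at 2952 against 7896 CPM in CD4 and 1815 against 5463 CPM in CD8 gut cells. The part of any of these in the values of Cish, Socs2, Socs3 and Socs5, the gut falls of Cish and Socs2 included, was not tested. In bulk libraries fewer cells that express a gene and less RNA of it per cell cannot be told apart.

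Cish stood out in the comparison of tissues. Gut and spleen were compared within each batch and treatment, which does not depend on what the treatment labels of batch 190306 mean, in 5 pairs per cell type. Cish was higher in gut in 5 of 5 pairs of CD4 cells, by 3.61-fold to 7.64-fold, and in 5 of 5 pairs of CD8 cells, by 4.40-fold to 15.9-fold. The fitted log2 difference was 2.50 ± 0.19 in CD4 cells (edgeR adjusted p 1.15e-07) and 3.19 ± 0.21 in CD8 cells (adjusted p 2.27e-08), on 22 libraries and 12841 genes. In CD4 cells 4 of the 8 members passed, against 49.3% of all genes, and in CD8 cells 6 of 8, against 47.8%, so that a call by itself sets a member apart from few genes. Socs2 was higher in gut in 5 of 5 pairs of each cell type, with a log2 difference of 1.28 ± 0.27 in CD4 (edgeR adjusted p 0.00117) and 1.85 ± 0.31 in CD8 cells (adjusted p 0.000152). Its calls rest on the blocks of batch and treatment and are lost without them (edgeR adjusted p 0.584 in CD4 and 0.233 in CD8 cells). Each of these calls was lost under 2 of 8 alternative settings, that one included.

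Socs1 and Socs3 were higher in gut than in spleen in CD8 cells, by 0.78 ± 0.13 (edgeR adjusted p 9.54e-05) and 0.73 ± 0.16 (adjusted p 0.00166). In CD4 cells they did not pass, at 0.27 ± 0.12 (edgeR adjusted p 0.0711) for Socs1, and each was lower in gut in 1 of 5 pairs, that of anti-IL-2 in batch 181201. The difference between the cell types was tested for every member after seeing these values, and none passed (Socs1 0.50 ± 0.17 with an edgeR adjusted p of 0.0989, Socs3 0.52 ± 0.22 with 0.188, Cish 0.69 ± 0.27 with 0.15), where 4.65% of genes did. At an unadjusted p under 0.05 those 3 members passed. Without batch 190306 the Socs3 difference in CD8 cells was 0.35 and no longer called (edgeR adjusted p 0.0919). Socs4 was lower in gut in all 5 pairs of both cell types, by a small amount (-0.32 ± 0.06 in CD4 and -0.22 ± 0.06 in CD8 cells, edgeR adjusted p 0.000357 and 0.00602). Socs7 was higher in gut in all of them (0.21 ± 0.04 and 0.29 ± 0.04, edgeR adjusted p 0.000434 and 2.51e-05). Socs5 and Socs6 did not pass in either.

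Gut libraries also differed from spleen libraries in markers of other cells and in stress genes. The summed CPM of 12 stress and immediate early genes was 1815 to 8617 in gut and 514 to 2013 in spleen libraries, and that of 6 epithelial markers was 18.0 to 97.9 in gut and 5.87 to 11.4 in spleen libraries. Within a cell type neither sum overlapped between tissues. All 6 epithelial markers had reads in gut, and Krt8 and Krt20 were at 0 in 3 of the 4 spleen groups. Tissue and the way it was prepared cannot be told apart. Their part in the levels of Cish, Socs1, Socs2 and Socs3 was not tested.

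CD4 cells had more of most members than CD8 cells. In spleen 6 of 8 members were higher in CD4 cells, against 28.9% of all genes, and none was lower. The log2 differences were 1.57 ± 0.19 for Cish, 0.998 ± 0.12 for Socs1, 1.61 ± 0.29 for Socs2, 0.78 ± 0.15 for Socs3, 0.92 ± 0.11 for Socs5 and 0.18 ± 0.04 for Socs7, with edgeR adjusted p values between 1.14e-06 and 0.000562. Each of these was higher in CD4 cells in 6 of 6 pairs of the same batch and treatment. Socs4 was also higher in 6 of 6 pairs but did not pass (0.13 ± 0.06, edgeR adjusted p 0.0557). In gut 5 of 8 passed, against 22.9% of all genes: Cish at 0.88 ± 0.19, Socs1 at 0.49 ± 0.12, Socs2 at 1.04 ± 0.28, Socs5 at 1.05 ± 0.12 and Socs7 at 0.11 ± 0.04. Their edgeR adjusted p values ran from 1.58e-06 for Socs5 to 0.0449 for Socs7, and Socs3 did not pass (0.26 ± 0.16, adjusted p 0.215). Socs5 was 1.71-fold to 2.50-fold higher in CD4 cells in the 5 gut pairs and 1.51-fold to 2.63-fold in the 6 spleen pairs. The gut calls of Cish, Socs1, Socs2 and Socs7 were lost without the blocks of batch and treatment (edgeR adjusted p 0.151, 0.16, 0.633 and 0.295), and so was the spleen call of Socs2 (0.183). Of 8 alternative settings, that one included, the gut calls were lost under 2 for Cish, 1 for Socs1, 3 for Socs2 and 4 for Socs7. The spleen call of Socs2 was lost under 2. The Socs7 call in gut was also lost in 14 of 22 fits that left out a library.

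**Figure D4:**
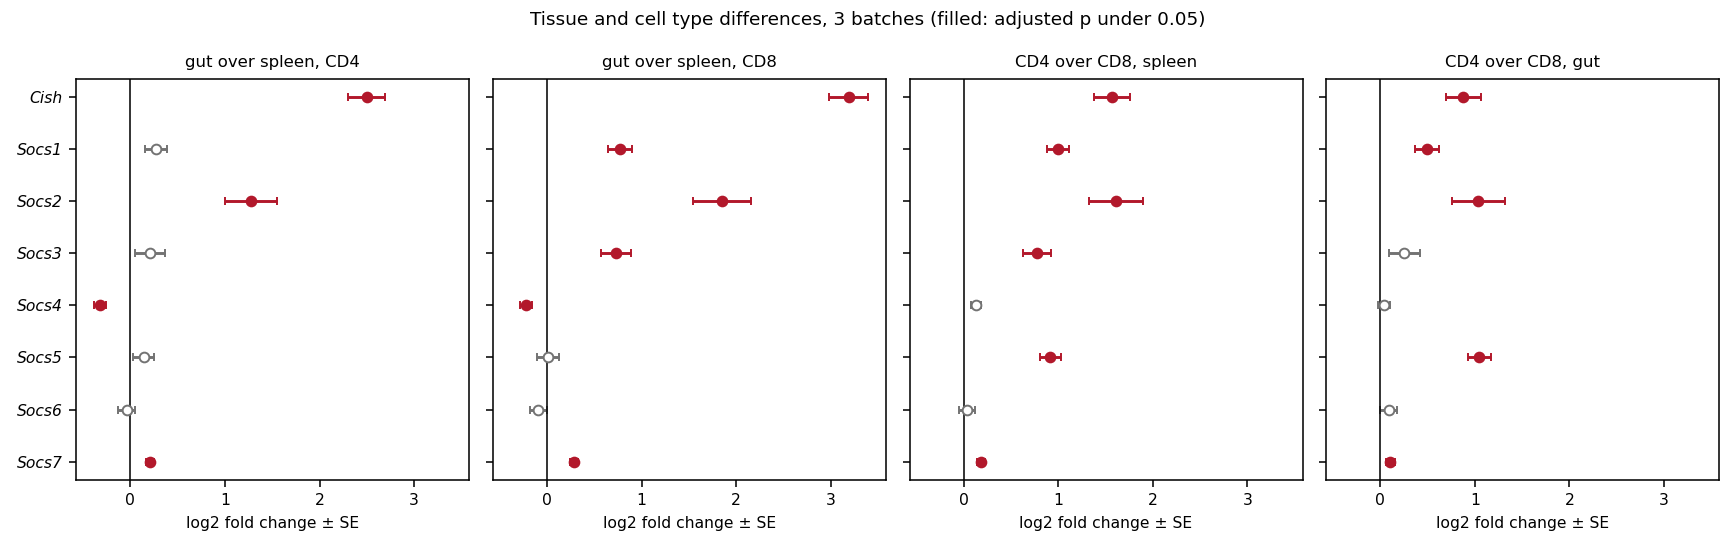
Log2 fold change with its standard error for each SOCS family gene, gut over spleen in CD4 and CD8 cells and CD4 over CD8 cells in spleen and gut, from 22 libraries with blocks for batch and treatment, with filled points for an edgeR adjusted p under 0.05. Cish lies farthest right in both tissue panels, at 2.50 and 3.19, and Socs4 lies left of 0 in both.

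Pathway genes were counted in the same tissue and cell type comparisons, in which many genes differed. Of all 12841 genes, 3413 were higher and 2916 lower in gut in CD4 cells, and 3189 higher and 2952 lower in CD8 cells, and list counts near these shares say nothing particular of a list. Between CD4 and CD8 cells 3712 were higher and 3747 lower in spleen, and 2935 higher and 2971 lower in gut. In gut against spleen, 4 of 11 JAK and STAT genes were higher and none lower in CD4 cells, and 7 were higher and 1 lower in CD8 cells. Jak3, the kinase of the common gamma chain, was higher in gut by 0.54 ± 0.07 in CD4 and 0.53 ± 0.07 in CD8 cells (edgeR adjusted p 4.87e-06 and 6.79e-06), and Stat3, the target of gp130 cytokines, by 0.44 ± 0.06 and 0.47 ± 0.06 (edgeR adjusted p 1.13e-05 and 5.75e-06). Of the 13 other inhibitors, 7 were lower in gut and none higher in CD4 cells, and 5 were lower and 1 higher in CD8 cells. Usp18 was lower in gut, with -1.80 ± 0.13 in CD4 cells (edgeR adjusted p 9.57e-09) and -0.62 ± 0.14 in CD8 cells (adjusted p 0.00116). Of the 9 ligase genes 3 were higher and 3 lower in CD4 cells, and 4 higher and 3 lower in CD8 cells. Between cell types, 7 of 11 JAK and STAT genes were higher in CD4 than in CD8 spleen cells and 1 was lower, with Jak2 at 0.75 ± 0.06 (edgeR adjusted p 5.04e-09). Of the 9 ligase genes none was higher in CD4 cells and 5 were lower in spleen and 3 in gut, Elob with -0.36 ± 0.05 and -0.30 ± 0.06 (edgeR adjusted p 7.21e-06 and 0.000216).

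The genes whose levels followed each member most closely were found by Pearson correlation of log2 CPM over the 22 libraries, centred within each of the 4 populations, among the 9595 genes whose mean log2 CPM was 2 or more. For Cish they were Il2ra (r = 0.957), Apobr (0.953), Epas1 (0.949), Ptprj (0.928) and Tex2 (0.924). For Socs2 they were Sae1 (r = 0.932), Myh10 (0.918), Serinc3 (0.913), Cpd (0.913) and Nsmce2 (0.912). Those of Socs1 were Arhgap27 (r = 0.958), Phc2 (0.948), Arid5a (0.944), Rai1 (0.942) and Gdpd5 (0.940), and those of Socs3 were Chd3 (r = 0.883), Traf3 (0.878), Relb (0.876), H2-K1 (0.876) and Spry1 (0.869). The 4 sets share no gene. Between members the highest correlation was 0.833, of Cish with Socs2, and the lowest were -0.69 of Socs2 with Socs5 and -0.67 of Socs2 with Socs3. Socs1 and Socs3 had 0.609. These are descriptions over libraries that share batches.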

How the data were processed

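Poly(A) RNA of 22 sorted donor T cell libraries was sequenced. The deposited values are raw read counts for each gene symbol, made per the submitters' processing notes with TopHat2 and HTSeq 0.9.1 on mm10. The annotation, strand setting and filters are not given in the sources used here. The total count per library ran from 14628806 to 24518362. Groups came from the cell type, tissue and treatment labels. The description of the CD8 IgG libraries names the other tissue, and the tissue label was used. By that label, 6 epithelial markers summed to 44.9 to 49.3 CPM in CD8 gut IgG and 8.14 to 10.5 CPM in CD8 spleen IgG libraries. In CD8 anti-IL-2 libraries, without this conflict, the sums were 59.4 to 93.8 CPM in gut and 9.2 to 11.4 CPM in spleen. Recipients lacking PD-L1, named in the series title, are not among the 22 libraries.

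The counts were tested with edgeR 4.0.16 in R 4.3.3 (filterByExpr with a minimum count of 10, TMM, robust quasi-likelihood test, Benjamini-Hochberg over all genes tested in a contrast, threshold 0.05) and tested on simulated data. DESeq2 1.42.0 and limma voom 3.58.1 were alternatives, as were another scaling, other filters, other terms for batch and leaving out each library. CPM and log2 CPM (prior count 2) were computed from the deposited counts. Treatment fits had 8 groups and batch. Tissue and cell type fits had 4 populations and a block for each batch and treatment. Batch is a label shared by libraries of both treatments and is the block used throughout. Deviations from group means of libraries paired by batch correlated between -0.07 and 0.22. Because those means run over all batches, the reversal in batch 190306 can lower these values. They therefore cannot show whether libraries of a batch go together, and the pairing rests on the label. Gene positions and exon lengths came from GENCODE M21, which matched 23509 of 24091 names. All 8 members are named. Of each pathway list, at most 4 genes per comparison are named, those called with the smallest p, and of the ligase genes the first 2 where none was called. A gene of these lists that the rule would name is not reported here. For Cish, Socs1, Socs2 and Socs3 the 5 most similar genes are named. Members, lists, tests and the separation of batch 190306 were chosen with earlier results of these data known.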

Additional observations from a re-analysis of the deposited data

Results flagged for a closer look

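The treatment difference in Cish differed between tissues, by 0.91 on the log2 scale in CD4 cells and 1.05 in CD8 cells, gut minus spleen, in batches 181201 and 181212 (edgeR interaction test). That in Socs2 differed by 1.11 in CD4 cells. In each case the fall with anti-IL-2 was smaller in gut than in spleen in these batches. The gut value there rests on a single IgG library per cell type. In batch 190306 the size of the Socs2 difference was not smaller in gut, at 2.70 against 2.65 in CD4 cells.

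The treatment difference also differed between batch 190306 and the other batches, in the same kind of test, chosen with the reversal in that batch known. For Cish the difference was 2.78 in CD4 spleen, 3.02 in CD8 spleen, 1.41 in CD4 gut and 1.64 in CD8 gut. For Socs2 it was 5.86, 6.84, 4.78 and 7.74 in the same order. For Socs5 it was -0.98 in CD4 spleen, -1.55 in CD8 spleen and -1.12 in CD8 gut, and for Socs3 -1.16 in CD4 spleen. Of these, the call of Socs5 in CD8 gut was lost in 5 fits that left out a library, with DESeq2 and with limma voom. The call of Socs5 in CD4 spleen was lost with DESeq2, and that of Cish in CD8 spleen with batch as an additive term. The call of Socs3 was lost in 2 fits that left out a library and without a filter on low counts. Batch 190306 holds 1 library per group, whose spread is assumed to be that of the other batches.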

How the results depend on the processing

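Cish and Socs2 kept their treatment calls over batches 181201 and 181212 under every alternative run. The number of calls there, counted over members and populations, was 8 to 11 when a library was left out (10 with all) and 10 to 11 under other settings. For batch 190306 against the others it was 11 to 12 and 11 to 13 (12 as reported), and for gut against spleen 10 to 11 and 7 to 10 (10 as reported). For all batches it was 0 throughout. The treatment difference compared between tissues and cell types gave 1 to 3 calls when a library was left out, against 3, with 1 without the CD4 gut anti-IL-2 library of batch 181212. CD4 against CD8 gave 10 to 12 calls when a library was left out, against 11, but 6 with no replicate block for batch and treatment and 7 with 8 groups and batch averaged over treatments. The difference between cell types in gut against spleen gave 0 to 1 calls when a library was left out, Cish without the CD8 spleen IgG library of batch 181212 and Socs1 without the CD4 gut anti-IL-2 library of batch 190306. Without the replicate block the Socs2 tissue difference in the treatment effect in CD4 cells was 1.20 (edgeR adjusted p 0.0609), and with DESeq2 1.11 (adjusted p 0.125). With batch as an additive term, Cish in CD8 spleen differed between batches by 1.91 (edgeR adjusted p 0.0632). Socs5 between batches in CD8 gut was -1.12 to -0.95 without each of the 5 anti-IL-2 libraries that end its call, those of CD8 spleen and CD4 gut in batches 181201 and 181212 and of CD8 gut in batch 181212. Without any filter Socs3 between batches in CD4 spleen was not called (edgeR adjusted p 0.0815). Gut against spleen, Socs7 in CD4 cells lost its call with no replicate block (edgeR adjusted p 0.0787) and Socs4 in CD8 cells without batch 190306 (-0.25, 0.0533). No called value changed sign. Of 104 values with an unadjusted p of 0.05 or more, 53 changed sign under some alternative, the largest of these being 0.46 in size. The cause of these changes was not tested. Some of the 104 fitted values are printed with their sign, and no direction is claimed from them. Depth limits Socs2 most, with 8 reads in its lowest library. Where a left-out library removed the only IgG gut library of batches 181201 and 181212, the contrast could not be fitted and has no value.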
